A study of Mus musculus with 32 samples.

Results

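The mitotic entry kinases and cyclins are 10 genes chosen by name: the kinases Plk1, Aurka, Aurkb, Nek2 and Cdk1, the cyclins Ccnb1, Ccnb2 and Ccna2, the phosphatase Cdc25b and the Cdk subunit Cks2. They were chosen with earlier results of these data known, so shares of all probe sets beside their counts are a description. Every probe set that the platform annotation assigns to 1 of these symbols, or to an older synonym of it, was taken. This gave 16 probe sets for 9 genes, 12 on array A and 4 on array B, of 45265 probe sets on both Affymetrix array types. Ccnb1 had 0 probe sets in that annotation, alone or shared with other genes, and was not analysed here. Of the 16 probe sets, 14 passed the filter on low values, of 27084 that passed in all.

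The samples were early passage primary mouse embryonic fibroblasts (MEFs), cells grown from mouse embryos and used before they adapt to culture. There were 4 groups of 4 RNA extracts: Oct-1 mutant irradiated, Oct-1 mutant unirradiated, wild type irradiated and wild type unirradiated. Oct-1, encoded by Pou2f1, is a transcription factor that binds the octamer motif, and 0 probe sets were annotated to it, so its own level was not analysed here. What the mutant allele is, which radiation dose was given, how long after it RNA was taken and where replicates came from is not stated in the labels or files used here. P-values therefore measure only the spread between these extracts, which may be technical. Each extract was hybridised to both array types, which made 32 samples. Values are log2 probe set values as deposited, and levels of different probe sets are not compared.

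The median value of an array was 6.16 to 6.28 for array A and 3.67 to 3.78 for array B. The title numbers fall into 2 runs, with replicates 1 and 2 of each group in the first and replicates 3 and 4 in the second. Extracts of a run deviated together from their group means, and within-run values are given beside the main results. All 10 fibroblast markers passed the filter on low values, and 1 of them was called with irradiation in each genotype. Of the markers of other cell types, 3 of 7 measured macrophage and blood, 3 of 5 epithelial, 3 of 4 neural and glial, 1 of 4 skeletal muscle, 1 of 2 adipocyte and 0 of 4 endothelial genes passed it, and 0 were called in either irradiation comparison. Between genotypes, 2 fibroblast markers were called with irradiation and 1 without, and 1 adipocyte marker in each. Of all probe sets, 3.8% and 3.87% were called there on array A, and 0.363% and 0.437% on array B. The mean over the 10 fibroblast markers was 11.69 in irradiated mutant and 11.17 in irradiated wild type extracts. Without irradiation it was 11.74 and 11.2. Dcn had the widest gap, at 8.01 in mutant against 6.24 in wild type with irradiation, and 8.15 against 5.89 without. The part of these markers in the genotype values was not tested.

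Entry into mitosis is driven by Cdk1, which works only when bound to a B-type or A-type cyclin and is held in check by inhibitory phosphorylation. Cdc25 phosphatases remove that phosphate, Plk1 and Aurora A promote the switch, and Aurora B and Nek2 act on chromosomes and centrosomes as mitosis proceeds. Transcripts of these genes rise in G2 and mitosis and are repressed after DNA damage, and CCAAT boxes and the cell cycle genes homology region (CHR) in their promoters are textbook elements of that control.

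The promoters are shown for the 3 genes with the deepest falls described further on (Plk1, Aurka and Cdc25b) and for the 2 with the smallest falls that were called in the mutant (Ccnb2 and Cdk1). Sequences are from RefSeq, build GRCm38.p6, and run from position -110 to 20 relative to the start in the promoter table, with no position 0. For Aurka and Cdc25b that start lies inside the gene's annotated span, so the window is not upstream of the whole gene. Capitals mark CCAAT, or ATTGG where it lies on the opposite strand, the CHR letters TTTGAA and the CHR variant TTCGAA.
Plk1, chr7:122159325-122159454, plus strand: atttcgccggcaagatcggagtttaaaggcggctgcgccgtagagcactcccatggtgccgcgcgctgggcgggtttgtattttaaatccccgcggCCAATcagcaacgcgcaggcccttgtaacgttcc
Aurka, chr2:172370551-172370680, minus strand: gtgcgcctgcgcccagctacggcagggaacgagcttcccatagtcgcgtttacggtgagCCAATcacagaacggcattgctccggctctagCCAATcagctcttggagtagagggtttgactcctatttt
Cdc25b, chr2:131186838-131186967, plus strand: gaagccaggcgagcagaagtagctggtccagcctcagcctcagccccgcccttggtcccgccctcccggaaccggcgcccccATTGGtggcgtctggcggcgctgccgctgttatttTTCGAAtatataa
Ccnb2, chr9:70421535-70421664, minus strand: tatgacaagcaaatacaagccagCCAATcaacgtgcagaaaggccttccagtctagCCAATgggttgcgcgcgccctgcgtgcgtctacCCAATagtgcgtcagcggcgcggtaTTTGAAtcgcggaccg
Cdk1, chr10:69352893-69353022, minus strand: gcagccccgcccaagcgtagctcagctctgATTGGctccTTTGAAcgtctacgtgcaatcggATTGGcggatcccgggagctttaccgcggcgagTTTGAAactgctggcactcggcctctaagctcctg
In Plk1 and Aurka the CHR letters lie after the start, in these stretches from position 22 to 45.
Plk1, chr7:122159456-122159479, plus strand: agcgccgcgTTTGAAttcggggag
Aurka, chr2:172370526-172370549, minus strand: aaaggagaaccTTTGAAttgtaac

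The promoter table held 8 of the 10 genes, Aurkb and Ccna2 being the others, with 300 bases each. Both strands were searched for the CCAAT box, the CHR, its variant and the octamer that Oct-1 binds, and no match overlapped a match to another of these. The letters CCAAT were found in 8 of the 8, against 37.4% of all 32851 promoters in the table. TTTGAA was found in 4 of the 8 (Plk1, Aurka, Ccnb2 and Cdk1), against 17.9% of all promoters. It lies at 31 to 36 in Plk1, at 33 to 38 in Aurka, at 5 to 10 in Ccnb2 and at -15 to -10 in Cdk1, with a further copy upstream in Ccnb2 and in Cdk1. TTCGAA was found in 1, at 8 to 13 in Cdc25b, against 1.56% of all promoters. The octamer ATGCAAAT was found in 0 of the 8, against 1.74% of all promoters. These matches describe letters in the window and carry no statement on binding. The letters TTTGAA occur in genes with the largest falls (Plk1 and Aurka) and in those with the smallest falls called in the mutant (Ccnb2 and Cdk1). They were not found in Cdc25b, Cks2 and Nek2, which were also called. Whether the letters go with the size of the fall was not tested.

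The first comparison was irradiation in Oct-1 mutant cells. Plk1 and Aurka fell to 27.6% and 29.8% of their unirradiated level, and Cdc25b, Cks2 and Nek2 fell to between 41.4% and 54.6% of it. The cyclins Ccna2 and Ccnb2 fell less, and Cdk1, the kinase they activate, fell least. On array A, 10 of 12 probe sets fell at an adjusted p under 0.05 (limma with Benjamini-Hochberg adjustment over all probe sets tested), for 8 of 9 genes, and 0 rose. Over all 13582 probe sets tested on array A, 1.84% fell. In 11 of the 12 probe sets all irradiated extracts lay below all unirradiated ones, against 4.45% of all probe sets. The median log2 difference of the 12 was -0.8, against 0.007 over all probe sets. On array B, 1 of 2 tested probe sets fell, a Nek2 probe set, against 0.193% of all 13502 tested there.

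In wild type cells Aurka, Plk1 and Cdc25b again fell furthest, and fewer probe sets passed the test. On array A, 8 of 12 probe sets fell, for 6 of 9 genes, and 0 rose, against 1.5% of all probe sets that fell. All irradiated extracts lay below all unirradiated ones in 10 of the 12, against 4.59% of all probe sets. The median was -0.64, against 0.008 over all probe sets. On array B, 1 of 2 tested probe sets fell, against 0.163% of all. Ccnb2 and Cdk1 were called in the mutant and not in wild type, and the difference between the genotypes was tested separately. These are bulk RNA measurements, in which fewer cells in G2 and mitosis and less of each transcript per cell cannot be told apart.

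**Figure D1:**
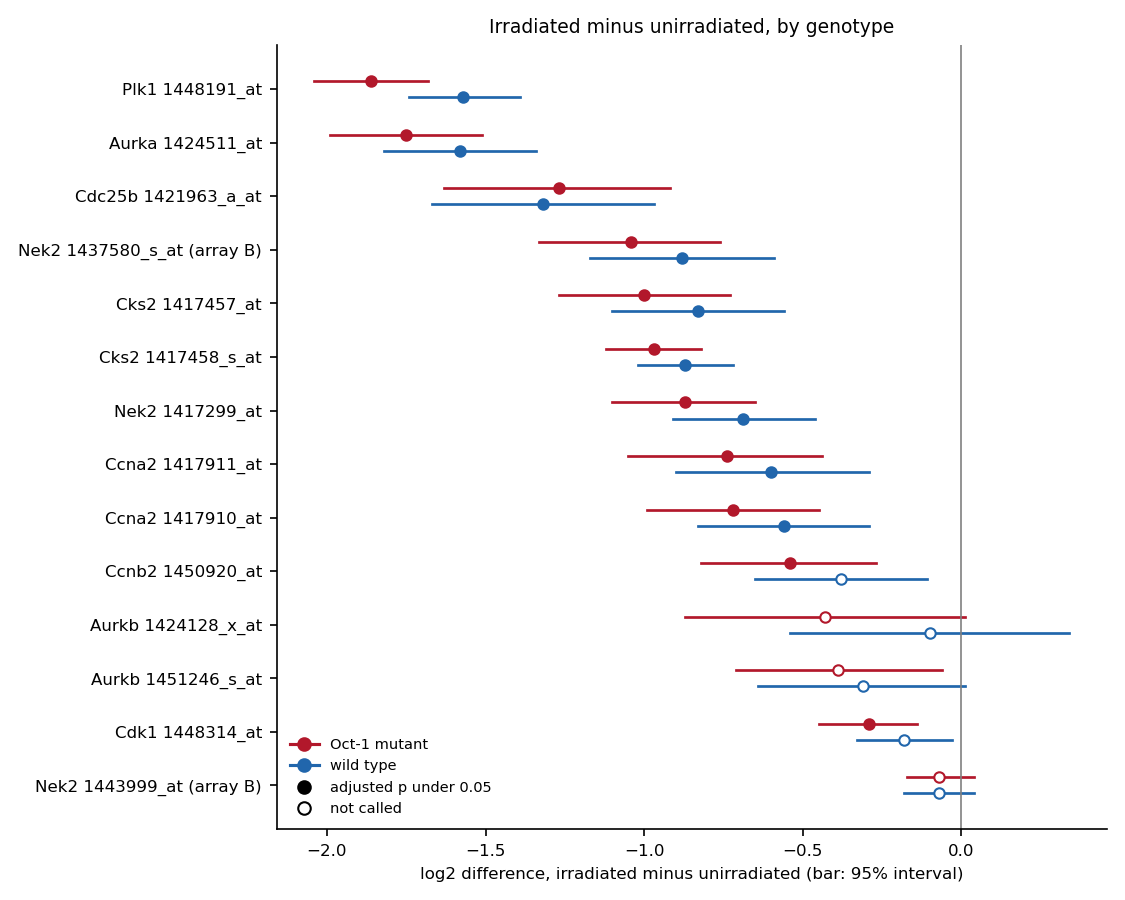
Log2 difference, irradiated minus unirradiated, for the 14 tested probe sets, with 95% intervals from limma; red is Oct-1 mutant, blue is wild type, and filled points have an adjusted p under 0.05. Plk1 and Aurka lie furthest to the left in both genotypes. Nek2 1443999_at lies nearest to 0, at -0.07 in both, and of the probe sets called in the mutant Cdk1 lies closest to 0.

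Plk1, the polo-like kinase that activates Cdc25 and drives centrosome maturation and spindle assembly, had the largest fall of these genes in mutant cells. Its levels were 7.47, 7.49, 7.42 and 7.43 in irradiated mutant extracts, against 9.31, 9.44, 9.2 and 9.31 in unirradiated mutant extracts. In wild type cells they were 7.7, 7.8, 7.69 and 7.71 in irradiated extracts, against 9.4, 9.48, 9.16 and 9.13 in unirradiated extracts. The irradiated and unirradiated values are far apart in both genotypes, and all 4 irradiated mutant extracts also lie below all 4 irradiated wild type extracts. Plk1 fell by 1.86 in the mutant (SE 0.08, adjusted p = 5.45e-09), to 27.6% of the unirradiated level, and was the 4th largest fall of all 13582 probe sets on array A. In wild type it fell by 1.57 (SE 0.08, adjusted p = 6.81e-08), to 33.7%, also the 4th largest. Within the first and second runs the log2 differences were -1.89 and -1.83 in the mutant and -1.69 and -1.44 in wild type.

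Aurka encodes Aurora A, the centrosome and spindle kinase that phosphorylates Plk1. Irradiated mutant extracts had 7.45, 7.69, 7.65 and 7.87, against 9.36, 9.49, 9.35 and 9.46 in unirradiated mutant extracts. Irradiated wild type extracts had 7.61, 7.54, 8.09 and 7.94, against 9.38, 9.4, 9.34 and 9.38 in unirradiated wild type extracts. The unirradiated extracts of both genotypes sit within a narrow band, the irradiated ones spread more, and irradiated and unirradiated groups do not overlap. Aurka fell by 1.75 in the mutant (SE 0.11, adjusted p = 2.49e-07), to 29.8%. In wild type Aurka fell by 1.58 (SE 0.11, adjusted p = 6.15e-07), to 33.5%. Within the first and second runs the log2 differences were -1.85 and -1.64 in the mutant and -1.81 and -1.34 in wild type. It was the 6th largest fall on array A in the mutant and the 3rd in wild type. A second Aurka probe set, on array B, did not pass the filter on low values: its group means were 2.37 to 2.4, below the minimum of 3.36, and it was not tested.

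Nek2, a kinase that separates centrosomes at mitotic entry, has 4 probe sets, and they did not all move. On array B, Nek2 1437580_s_at had 7.74, 7.88, 7.47 and 7.57 in irradiated mutant extracts, against 8.7, 9.05, 8.7 and 8.39 in unirradiated mutant extracts. It had 8.06, 8.18, 7.89 and 7.8 in irradiated wild type extracts, against 8.91, 9.02, 8.75 and 8.78 in unirradiated wild type extracts. Irradiated and unirradiated groups were apart in both genotypes. The fall was 1.04 in the mutant (SE 0.13, adjusted p = 0.00105) and 0.88 in wild type (SE 0.13, adjusted p = 0.00499). With only 2 replicates a group within a run its size held, at -1.06 and -1.02 in the mutant and -0.84 and -0.92 in wild type, while the adjusted p became 0.084 in the second run in the mutant and 0.0618 and 0.113 in the first and second runs in wild type.

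The array A probe set Nek2 1417299_at fell by 0.87 in the mutant (SE 0.11, adjusted p = 0.000111) and by 0.69 in wild type (SE 0.11, adjusted p = 0.00111). Its levels ranged over 5.67 to 6.06 in irradiated mutant extracts, against 6.53 to 6.97 in unirradiated mutant extracts. In wild type they ranged over 5.9 to 6.07 in irradiated extracts, against 6.55 to 6.75 in unirradiated extracts. The groups did not overlap, and by run the log2 differences were -1.03 and -0.72 in the mutant and -0.68 and -0.69 in wild type. Nek2 1443999_at, on array B, had a log2 difference of -0.07 in both genotypes (SE 0.05, adjusted p = 0.811 in the mutant and 0.989 in wild type), with overlapping groups. Nek2 1437579_at did not pass the filter, with group means of 1.18 and 1.19, and was not tested.

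Aurkb encodes Aurora B, the catalytic subunit of the chromosomal passenger complex, and neither of its probe sets was called in either genotype. Aurkb 1451246_s_at had 6.1, 6.17, 5.37 and 6.21 in irradiated mutant extracts, against 6.59, 6.34, 6.23 and 6.24 in unirradiated mutant extracts. In wild type it had 6.13, 6.32, 6.21 and 6.16 in irradiated extracts, against 6.61, 6.5, 6.5 and 6.46 in unirradiated extracts. All irradiated values lay below all unirradiated values in each genotype, by a small margin, and irradiated mutant replicate 3 was far below the rest. Its log2 difference was -0.39 in the mutant (SE 0.15, adjusted p = 0.185) and -0.31 in wild type (SE 0.15, adjusted p = 0.348). By run it was -0.33 and -0.45 in the mutant and -0.33 and -0.3 in wild type. Aurkb 1424128_x_at, whose suffix marks probes that can match other transcripts, had overlapping groups, at 7.59 to 8.42 in irradiated and 8.2 to 8.69 in unirradiated mutant extracts, and at 7.81 to 8.67 in irradiated and 8.05 to 8.49 in unirradiated wild type extracts. Its log2 difference was -0.43 in the mutant (SE 0.21, adjusted p = 0.292) and -0.1 in wild type (SE 0.21, adjusted p = 0.912). With a replicate block the mutant difference was called (adjusted p = 0.0222, range 0.0137 to 0.625 over the alternatives tried), and within the first and second runs it was -0.17 and -0.68, against 0.06 and -0.26 in wild type.

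Cdc25b, a phosphatase that activates cyclin-Cdk1 at the centrosome, had the 3rd largest fall of these genes. Its levels were 6.01, 6.05, 6.15 and 5.66 in irradiated mutant extracts, against 7.15, 7.51, 7.26 and 7.06 in unirradiated mutant extracts. They were 6.37, 6.37, 6.09 and 5.98 in irradiated wild type extracts, against 7.85, 7.78, 7.18 and 7.27 in unirradiated wild type extracts. The groups were well apart in each genotype, and the unirradiated wild type values differed by run. Cdc25b fell by 1.27 in the mutant (SE 0.17, adjusted p = 0.000195), to 41.4%, and by 1.32 in wild type (SE 0.17, adjusted p = 0.000148), to 40.1%. Within the first and second runs the log2 differences were -1.3 and -1.25 in the mutant and -1.45 and -1.19 in wild type. Of the 12 array A probe sets, it was the 1 whose log2 difference was not more negative in the mutant than in wild type.

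Ccna2 encodes cyclin A2, which acts in S phase with Cdk2 and in G2 with Cdk1. Ccna2 1417910_at had 9.7, 9.49, 9.32 and 9.3 in irradiated mutant extracts, against 10.34, 10.06, 10.12 and 10.18 in unirradiated mutant extracts. It had 10.13, 9.91, 9.53 and 9.61 in irradiated wild type extracts, against 10.53, 10.39, 10.25 and 10.23 in unirradiated wild type extracts. Irradiated extracts lay below unirradiated ones in each genotype, with the gap narrowest in wild type. It fell by 0.72 in the mutant (SE 0.13, adjusted p = 0.00299) and by 0.56 in wild type (SE 0.13, adjusted p = 0.0196). The second probe set, Ccna2 1417911_at, ranged over 9.29 to 9.63 in irradiated mutant extracts, against 10.01 to 10.34 in unirradiated mutant extracts, and over 9.46 to 10.06 in irradiated wild type extracts, against 10.17 to 10.61 in unirradiated wild type extracts. It fell by 0.74 in the mutant (SE 0.14, adjusted p = 0.00552) and by 0.6 in wild type (SE 0.14, adjusted p = 0.0258). Both wild type calls were lost without irradiated replicate 3 or 4, or unirradiated replicate 1 or 2. The adjusted p was then 0.0599 to 0.0742 for Ccna2 1417910_at and 0.0823 to 0.0945 for Ccna2 1417911_at. Log2 differences were still -0.47 to -0.54 and -0.49 to -0.54. Over all alternatives tried the limma adjusted p ranged over 0.000103 to 0.086 and 1.21e-05 to 0.0945. Within the first and second runs the log2 differences of Ccna2 1417910_at were -0.6 and -0.84 in the mutant and -0.44 and -0.67 in wild type. Those of Ccna2 1417911_at were -0.69 and -0.79 in the mutant and -0.55 and -0.65 in wild type.

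Ccnb2 encodes cyclin B2, a Cdk1 partner that associates with the Golgi. It had 9.12, 9.11, 8.61 and 8.64 in irradiated mutant extracts, against 9.44, 9.6, 9.36 and 9.27 in unirradiated mutant extracts. It had 9.01, 9.17, 8.75 and 8.78 in irradiated wild type extracts, against 9.4, 9.32, 9.29 and 9.23 in unirradiated wild type extracts. The groups did not overlap in either genotype, and irradiated replicates 3 and 4 were lower than irradiated replicates 1 and 2. Ccnb2 fell by 0.54 in the mutant (SE 0.13, adjusted p = 0.0208), to 68.6%. That call was lost without irradiated mutant replicate 3 or 4 or unirradiated mutant replicate 1 or 2, at an adjusted p of 0.0562 to 0.0729. In wild type the log2 difference was -0.38 (SE 0.13, adjusted p = 0.126). With a replicate block that wild type difference was called (adjusted p = 0.00624, range 0.00354 to 0.3 over the alternatives tried). Within the first and second runs the log2 differences were -0.4 and -0.69 in the mutant and -0.27 and -0.5 in wild type.

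Cdk1, the catalytic subunit that these cyclins activate, changed least of the genes called. It had 11.24, 11.44, 11.22 and 11.21 in irradiated mutant extracts, against 11.52, 11.48, 11.56 and 11.72 in unirradiated mutant extracts. It had 11.33, 11.43, 11.22 and 11.26 in irradiated wild type extracts, against 11.51, 11.44, 11.42 and 11.59 in unirradiated wild type extracts. The mutant groups were narrowly apart, at 11.44 against 11.48 for the nearest extracts, and the wild type groups overlapped. Cdk1 fell by 0.29 in the mutant (SE 0.07, adjusted p = 0.0256), to 81.6%, and its log2 difference in wild type was -0.18 (SE 0.07, adjusted p = 0.225). The mutant call was lost without irradiated mutant replicate 1, 3 or 4 or unirradiated mutant replicate 3 or 4 (adjusted p = 0.0618 to 0.081). Within the first and second runs its log2 difference was -0.16 and -0.43 in the mutant and -0.09 and -0.27 in wild type.

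Cks2 encodes a small Cdk-binding subunit that helps cyclin-Cdk1 phosphorylate its substrates. Cks2 1417458_s_at had 11.23, 11.34, 11.27 and 11.37 in irradiated mutant extracts, against 12.29, 12.34, 12.25 and 12.2 in unirradiated mutant extracts. It had 11.38, 11.39, 11.48 and 11.49 in irradiated wild type extracts, against 12.39, 12.49, 12.15 and 12.2 in unirradiated wild type extracts. The irradiated extracts were tightly grouped and far below the unirradiated ones. It fell by 0.97 in the mutant (SE 0.07, adjusted p = 6.17e-07), to 51.1%, and by 0.87 in wild type (SE 0.07, adjusted p = 2.48e-06), to 54.7%. Cks2 1417457_at ranged over 10.22 to 10.74 in irradiated mutant extracts, against 11.43 to 11.7 in unirradiated mutant extracts, and over 10.57 to 10.9 in irradiated wild type extracts, against 11.3 to 11.89 in unirradiated wild type extracts, without overlap in either genotype. It fell by 1 in the mutant (SE 0.13, adjusted p = 0.000162) and by 0.83 in wild type (SE 0.13, adjusted p = 0.00102). By run, Cks2 1417458_s_at differed by -1.03 and -0.91 in the mutant and by -1.05 and -0.69 in wild type, and Cks2 1417457_at by -1.11 and -0.9 in the mutant and by -0.81 and -0.85 in wild type. Set beside the fall of 0.29 for Cdk1 in the mutant, the change of its small partner was larger, a difference between genes that was not tested.

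**Figure D2:**
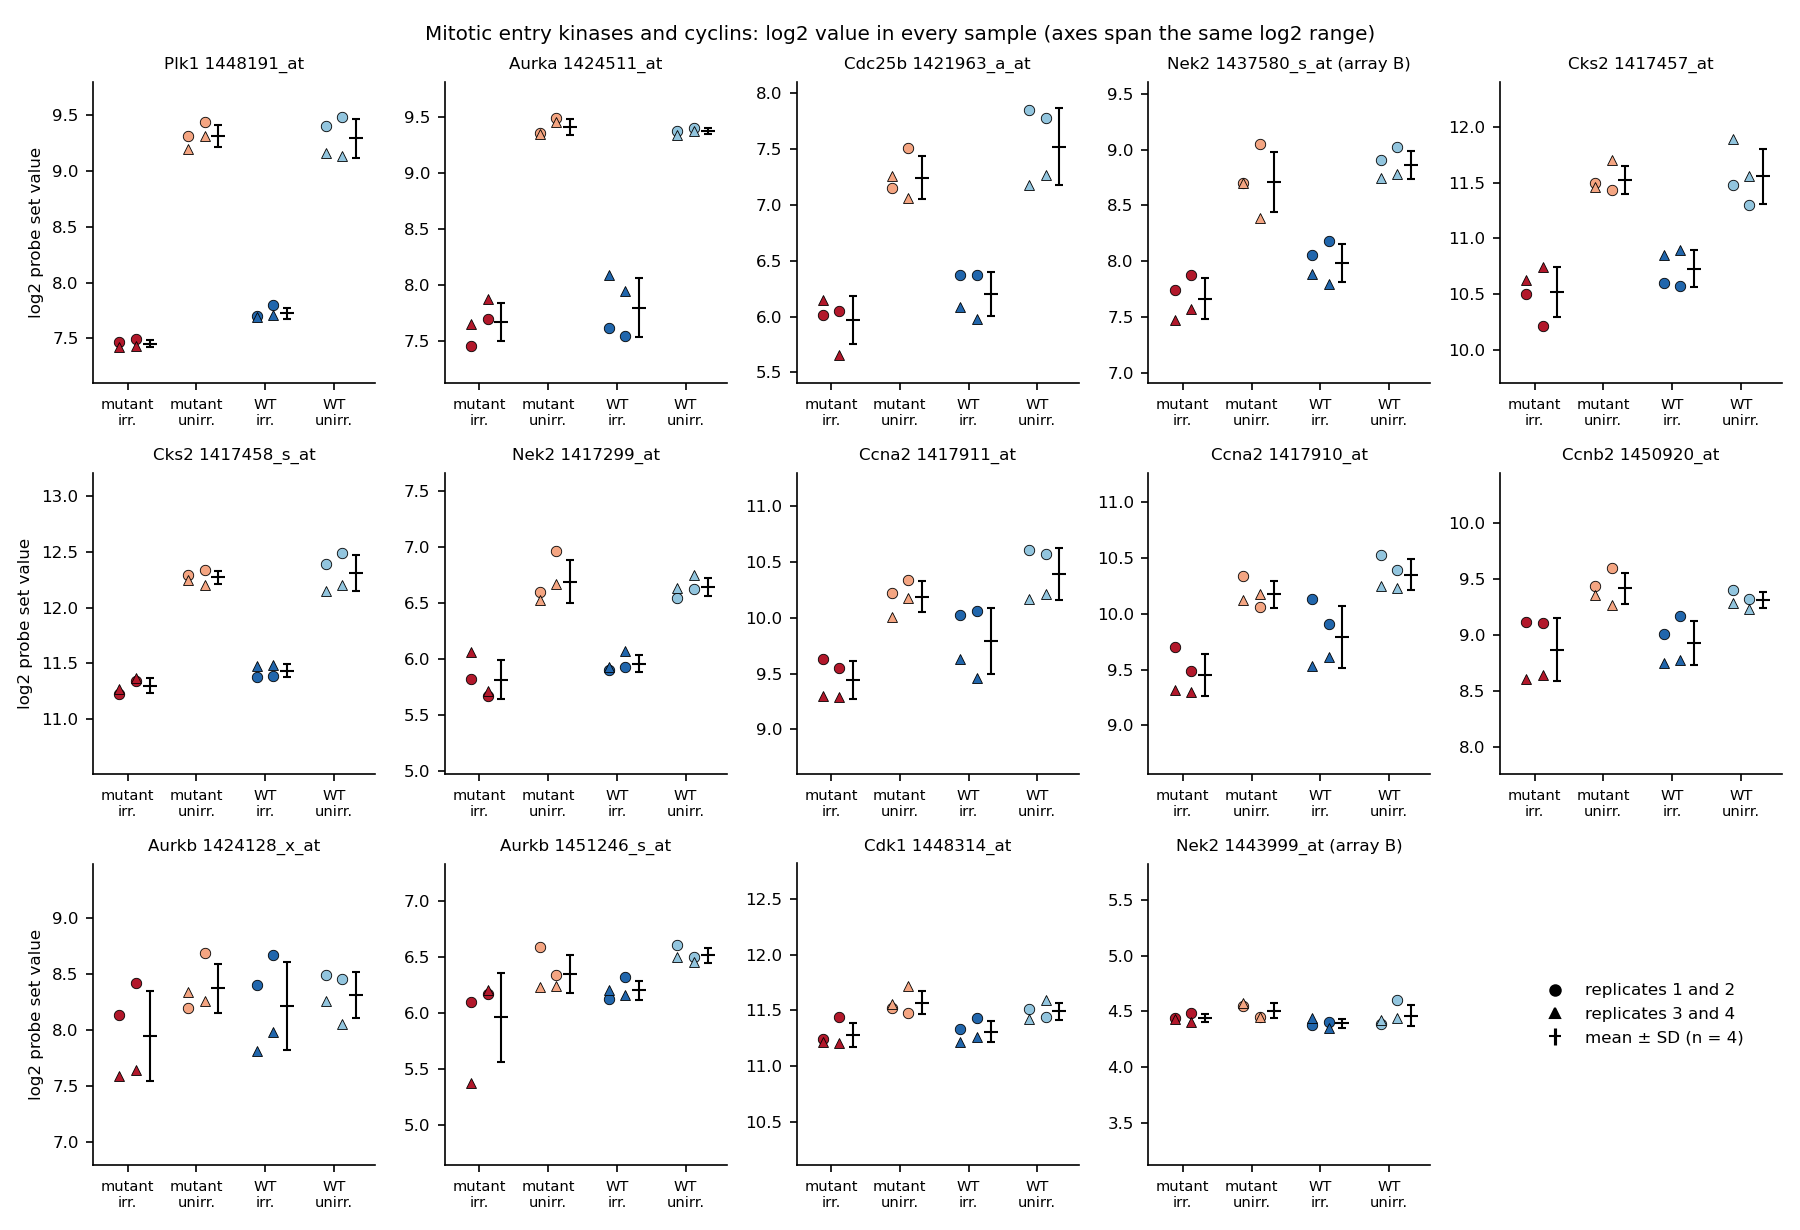
Log2 value of each of the 14 tested probe sets in every extract, by group, with mean ± SD beside the points (n = 4); circles are replicates 1 and 2 and triangles replicates 3 and 4, and every panel spans the same number of log2 units. Irradiated and unirradiated points separate widely for Plk1, Aurka and Cdc25b and lie close together for Cdk1, both Aurkb probe sets and Nek2 1443999_at.

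The next comparison was the difference of the irradiation effects, mutant minus wild type. The log2 differences ran from -0.33 for Aurkb 1424128_x_at to 0.05 for Cdc25b, with a median of -0.16, against 0 over all probe sets of array A. None was called by limma: 0 of 14 probe sets had an adjusted p under 0.05, and 1 had an unadjusted p under 0.05. Of all probe sets, 1.08% on array A and 1.84% on array B had an unadjusted p under 0.05. Over all probe sets 0% were called on array A and 0% on array B. Plk1 had the smallest p, with a difference of -0.29 (SE 0.12, unadjusted p = 0.0253, adjusted p = 1, 95% interval -0.54 to -0.04). For Aurka the difference was -0.17 (95% interval -0.51 to 0.17), and for Cdk1 it was -0.11 (95% interval -0.33 to 0.1). With 4 extracts a group, differences of this size were not called after adjustment over all probe sets. The Plk1 interval, which is not adjusted, leaves out 0, and the intervals do not show that the responses were alike.

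Between the genotypes with irradiation, 0 of 12 probe sets on array A and 0 of 2 on array B were called by limma, against 3.8% and 0.363% of all probe sets called in either direction, and 4 of the 14 had an unadjusted p under 0.05, against 14.6% of all probe sets on array A and 9.28% on array B. Irradiated mutant extracts lay below all irradiated wild type extracts for 2 probe sets of array A, Plk1 and Cks2 1417458_s_at, against 3.87% of all. Plk1 averaged 7.45 ± 0.03 in irradiated mutant extracts and 7.72 ± 0.05 in irradiated wild type extracts (SD, n = 4 each), a log2 difference of -0.27 (SE 0.08, adjusted p = 0.0957) that was negative in 4 of 4 same-numbered pairs and -0.26 and -0.28 within the runs. With the replicate number as a block its adjusted p was 0.0209, in a range of 0.0177 to 0.268 over the alternatives.

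Ccna2 1417910_at averaged 9.45 ± 0.19 in irradiated mutant extracts and 9.79 ± 0.27 in irradiated wild type extracts, a log2 difference of -0.34 (SE 0.13, adjusted p = 0.198). Ccna2 1417911_at differed by -0.35 (SE 0.14, adjusted p = 0.247). Their groups overlapped, and values of the first run were higher in both genotypes. With a replicate block the adjusted p was 0.0061 and 0.00504, and over the alternatives it ranged over 0.0061 to 0.466 and 0.00255 to 0.522. The block brought the number of called probe sets among the 14 to 3, against 0 without it. It raised the count over all probe sets too, to 10.4% of array A and 1.58% of array B. Nek2 1437580_s_at differed by -0.32 (SE 0.13, adjusted p = 0.495) and Cks2 1417458_s_at by -0.13 (SE 0.07, adjusted p = 0.445).

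Between the genotypes without irradiation, 0 of 14 probe sets were called by limma, against 3.87% of all probe sets called on array A and 0.437% on array B. Of the 14, 0 had an unadjusted p under 0.05, against 14.5% of all on array A and 7.86% on array B. The log2 differences ran from -0.28 for Cdc25b to 0.11 for Ccnb2. Plk1 averaged 9.31 ± 0.1 in unirradiated mutant extracts and 9.29 ± 0.17 in unirradiated wild type extracts, and Aurka averaged 9.41 ± 0.07 in unirradiated mutant extracts and 9.37 ± 0.02 in unirradiated wild type extracts (SD, n = 4 each). Their 95% intervals for the genotype difference were -0.16 to 0.2 for Plk1 and -0.2 to 0.28 for Aurka.

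**Figure D3:**
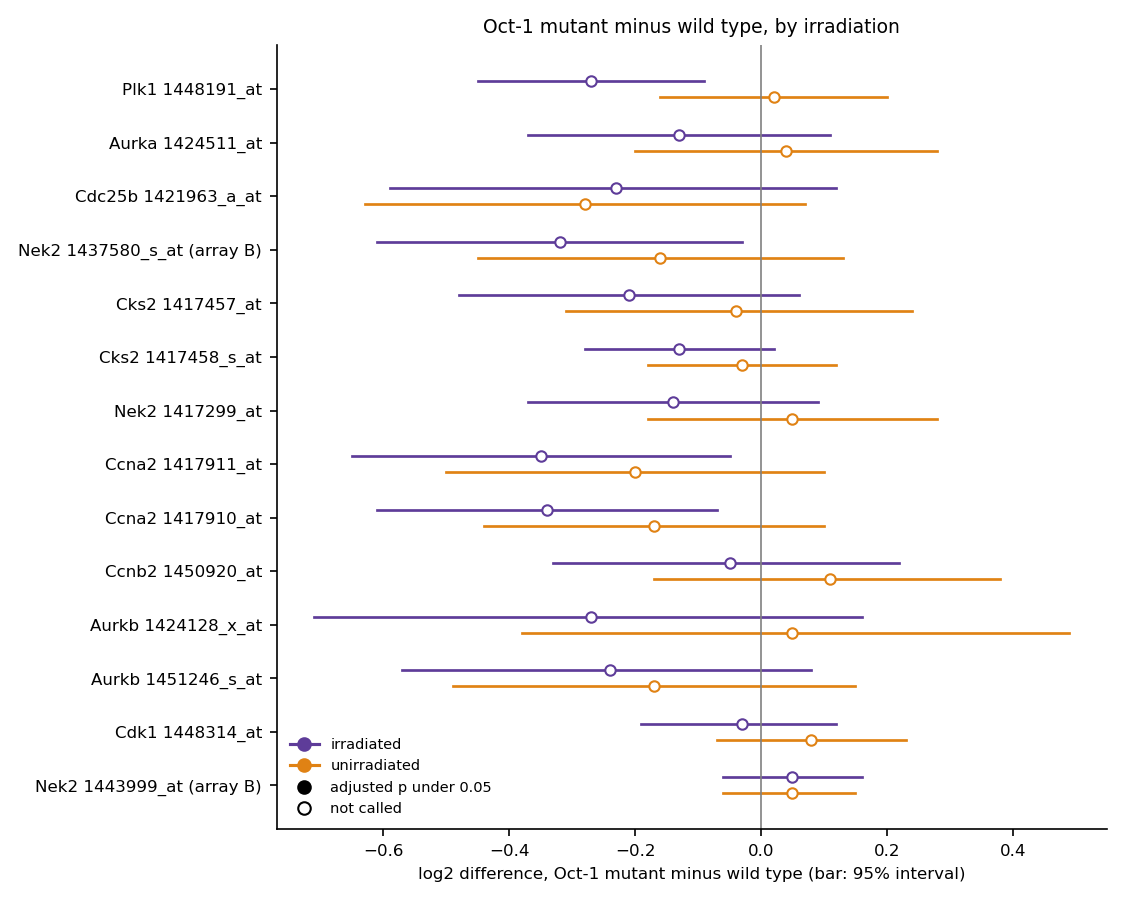
Log2 difference, Oct-1 mutant minus wild type, for the 14 tested probe sets with 95% intervals; purple is the comparison of irradiated extracts and orange that of unirradiated extracts. All points are open, since 0 of 14 were called in either comparison, and the intervals of irradiated extracts lie below 0 for Plk1, both Ccna2 probe sets and Nek2 1437580_s_at.

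The levels also differed between the runs. Averaged over the groups, the first run minus the second was 0.44 for Aurkb 1424128_x_at, 0.34 for Ccna2 1417911_at, 0.31 for Cdc25b, 0.28 for Ccnb2 and -0.26 for Cks2 1417457_at on the log2 scale. Plk1 and Cdk1 differed less, by 0.13 and 0.02. After group means were removed, the 66 pairwise correlations of the 12 array A probe sets over 16 extracts ran from -0.78 to 0.92. Their median was 0.12, as a description. The 2 probe sets of 1 gene correlated at 0.79 for Ccna2, 0.37 for Aurkb and -0.41 for Cks2. With such values within a gene, the correlations do not show whether the genes moved together. The extracts share their run, and without run means the median was 0.06.

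The surrounding pathway was described with 7 lists of 93 genes, of which 88 were tested by 190 probe sets. In the mutant 17 of these probe sets fell and 8 rose, and in wild type 15 fell and 7 rose. On array A 13 of 140 fell and 8 rose in the mutant, against 1.84% and 2.81% of all probe sets, and 12 fell and 7 rose in wild type, against 1.5% and 2.33%. On array B 4 of 50 fell and 0 rose in the mutant, against 0.193% and 0.489% of all, and 3 fell and 0 rose in wild type, against 0.163% and 0.607%. The median log2 difference was -0.04 in the mutant and -0.02 in wild type, near 0 for the pathway as a whole. With a replicate block 43 probe sets of the lists were called in each genotype, where the block called 12.8% and 1.49% of all probe sets of arrays A and B in the mutant and 10.4% and 1.8% in wild type.

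Among the partners of the Aurora kinases, 6 of 13 probe sets fell in the mutant and 4 of 13 in wild type, for Tpx2, Incenp and Cdca8, and 0 rose. On array A 4 of 6 fell in the mutant and 3 of 6 in wild type, against 1.84% and 1.5% of all. On array B 2 of 7 and 1 of 7 fell, against 0.193% and 0.163%. Tpx2, the spindle protein that activates Aurora A, fell by 0.76 (SE 0.1, adjusted p = 0.000148) in the mutant and by 0.8 (SE 0.1, adjusted p = 9.37e-05) in wild type. Incenp, the scaffold of the Aurora B complex, fell by 0.57 (SE 0.09, adjusted p = 0.000852) in the mutant and by 0.62 (SE 0.09, adjusted p = 0.000375) in wild type. Cdca8, which encodes the passenger subunit borealin, fell by 0.83 (SE 0.1, adjusted p = 0.000798) in the mutant and by 0.69 (SE 0.1, adjusted p = 0.00437) in wild type. Aurkb itself was not called, and neither was its partner Birc5, the passenger subunit survivin, with a log2 difference of -0.28 (SE 0.17, adjusted p = 0.434) in the mutant and -0.37 (SE 0.17, adjusted p = 0.318) in wild type.

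Of the activators of mitotic entry, 2 of 25 probe sets fell in each genotype, those of Cdc25c and Bora, and 0 rose. On array A this was 1 of 18, against 1.84% of all in the mutant and 1.5% in wild type. On array B it was 1 of 7, against 0.193% and 0.163%. Cdc25c, the phosphatase that works on Cdk1 beside Cdc25b, fell by 0.69 (SE 0.19, adjusted p = 0.0467) in the mutant and by 0.82 (SE 0.19, adjusted p = 0.0197) in wild type. Bora, the cofactor with which Aurora A activates Plk1, fell by 0.97 (SE 0.19, adjusted p = 0.0276) in the mutant and by 0.99 (SE 0.19, adjusted p = 0.0238) in wild type. The other activators tested, among them the Cdk-activating kinase subunits, were not called in either genotype.

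Of 25 probe sets of inhibitors, 2 rose and 1 fell in the mutant, and 3 rose and 2 fell in wild type. All of these were among the 24 on array A. Of all array A probe sets 2.81% rose and 1.84% fell in the mutant, and 2.33% and 1.5% in wild type. Both mutant rises were of Cdkn1a. Cdkn1a, the Cdk inhibitor p21, averaged 8.11 ± 0.23 in irradiated mutant extracts and 6.56 ± 0.31 in unirradiated mutant extracts on 1421679_a_at, a rise of 1.55 (SE 0.17, adjusted p = 3.39e-05). In wild type it averaged 8 ± 0.08 in irradiated extracts and 5.9 ± 0.3 in unirradiated extracts, a rise of 2.1 (SE 0.17, adjusted p = 1.96e-06). Wee1, the kinase that places the inhibitory phosphate on Cdk1, fell by 0.77 (SE 0.13, adjusted p = 0.00172) in the mutant and by 0.61 (SE 0.13, adjusted p = 0.0105) in wild type. In wild type the checkpoint kinase gene Chek2 rose by 0.56 (SE 0.1, adjusted p = 0.00519), and in the mutant its log2 difference was 0.23 (SE 0.1, adjusted p = 0.256). The Cdk inhibitor gene Cdkn1b fell by 0.87 (SE 0.22, adjusted p = 0.0368) in wild type, and in the mutant its log2 difference was -0.67 (SE 0.22, adjusted p = 0.103). These last 2 genes were named after their values were seen.

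Of the other mitotic kinases, Bub1b and Ttk fell. Bub1b, the spindle checkpoint protein BubR1, fell by 1.08 (SE 0.17, adjusted p = 0.000969) in the mutant and by 0.96 (SE 0.17, adjusted p = 0.00283) in wild type on array A. Ttk, the checkpoint kinase Mps1, fell by 0.66 (SE 0.11, adjusted p = 0.00194) in the mutant and by 0.77 (SE 0.11, adjusted p = 0.000536) in wild type. Of the 22 probe sets of this list, 3 fell in each genotype and 0 rose. On array A 2 of 16 fell in each genotype, against 1.84% of all in the mutant and 1.5% in wild type. On array B 1 of 6 fell, against 0.193% and 0.163%.

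Of the cyclin turnover genes, on array A 5 of 29 probe sets fell and 3 rose in the mutant, against 1.84% and 2.81% of all, and 4 fell and 1 rose in wild type, against 1.5% and 2.33%. All of these rises were of Anapc5, and 0 of 18 probe sets were called on array B. Cdc20, the activator of the anaphase promoting complex that leads to cyclin B destruction, had 3 probe sets, all called in each genotype. On 1 of them it fell by 1 (SE 0.07, adjusted p = 5.96e-07) in the mutant and by 0.71 (SE 0.07, adjusted p = 1.67e-05) in wild type. On another, Cdc20 1416664_at, the log2 differences were -0.78 in the mutant and -0.64 in wild type. Fzr1, the other activator of that complex, fell by 0.41 (SE 0.11, adjusted p = 0.0455) in the mutant and by 0.56 (SE 0.11, adjusted p = 0.00721) in wild type. Ube2c, its ubiquitin-conjugating enzyme, fell by 0.33 (SE 0.07, adjusted p = 0.0135) in the mutant. It was not called in wild type, and neither was the difference of its irradiation effects between the genotypes. Anapc5, a subunit of the complex, rose on 3 probe sets in the mutant, by 0.23 to 0.31, and on 1 of them in wild type. On that probe set, 1416906_at, it rose by 0.24 in the mutant (SE 0.06, adjusted p = 0.0419) and by 0.24 in wild type (SE 0.06, adjusted p = 0.0396).

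The list of transcription regulators, which holds the DREAM complex, B-Myb, FoxM1 and NF-Y genes, had 0 falls among 24 probe sets in either genotype, where 1.84% and 1.5% of all array A probe sets fell, so the count does not set this list apart. Nfyb, a subunit of the CCAAT-binding factor NF-Y, rose by 0.74 (SE 0.18, adjusted p = 0.025) in the mutant, and 0 probe sets of this list were called in wild type. Family relatives that act elsewhere in the cell cycle also had 0 falls, among 34 probe sets, a count near the same general shares, and the 28 on array A had 2 rises in the mutant and 3 in wild type, against 2.81% and 2.33% of all. Ccng1, a cyclin known as a p53 target, rose by 0.67 (SE 0.1, adjusted p = 0.000447) in the mutant and by 0.77 (SE 0.1, adjusted p = 0.00013) in wild type. Ccnd1, cyclin D1 of G1 phase, rose by 0.36 (SE 0.1, adjusted p = 0.0442) in the mutant and by 0.45 (SE 0.1, adjusted p = 0.0126) in wild type.

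**Figure D4:**
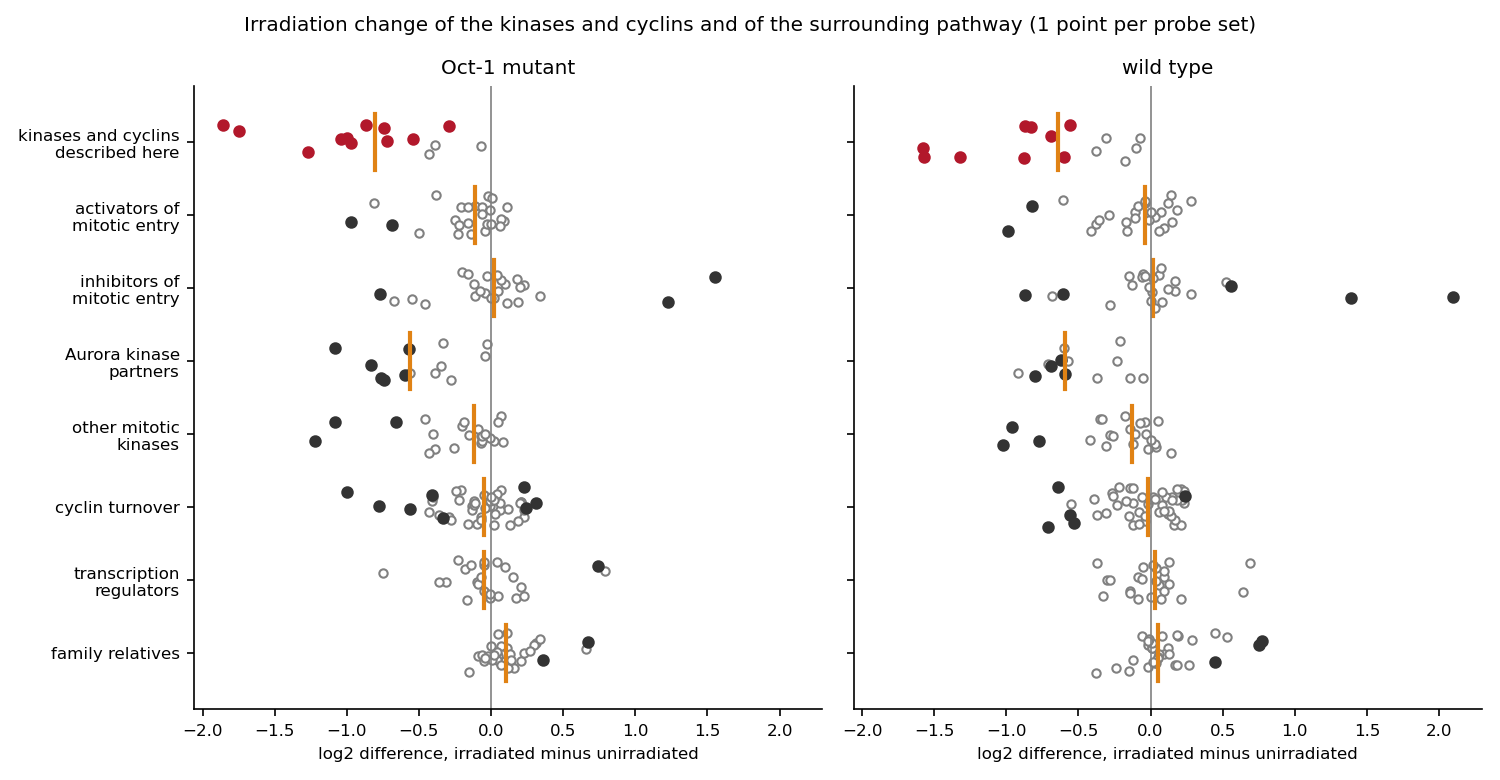
Log2 difference, irradiated minus unirradiated, for every tested probe set of the kinases and cyclins and of 7 pathway lists, in Oct-1 mutant and in wild type cells; filled points were called, open ones were not, and the orange bar is the list's median. The median of the kinases and cyclins is -0.8 in the mutant and -0.64 in wild type, and most other lists centre near 0, apart from the Aurora kinase partners.

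For the difference of irradiation effects 0 of 190 pathway probe sets were called, against 0% of all. Between genotypes 0 were called with irradiation, against 3.8% of all (array A) and 0.363% (array B), and 2 without, against 3.87% and 0.437%. The 2 were Cdkn1a 1421679_a_at, higher in unirradiated mutant extracts by 0.67 (SE 0.17, adjusted p = 0.0349), and Ensa 1428620_at, higher by 0.28 (SE 0.07, adjusted p = 0.0367), which encodes an inhibitor of the phosphatase that opposes Cdk1. Both were named after their values were seen. The other Cdkn1a probe set, 1424638_at, was not called between unirradiated genotypes. A replicate block brought these counts to 7 with irradiation and 10 without, where it called 10.4% and 11.1% of all array A probe sets.

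Genes outside the list whose pattern was most like the mean of the 9 gene profiles were ranked by Pearson r over the 16 extracts, with 1 probe set a gene. On array A these were Pimreg (0.984), Prc1 (0.982), Mki67 (0.974), Depdc1a (0.971), Cenpf (0.97), Anln (0.968), Cdc20 (0.964) and Kif2c (0.963). On array B they were Gas2l3 (0.983), Bub1b (0.973), Cdca8 (0.964) and Kif20b (0.956). The extracts fall into irradiated and unirradiated sets, so r mostly carries that contrast and is given as a description. After group means were removed r was 0.39 to 0.86 for these genes, except for Kif20b at -0.15. Several of them are textbook proliferation genes: Mki67 encodes the marker Ki-67, Prc1 bundles midzone microtubules and Cenpf is a kinetochore protein. Cenpf fell more steeply than Plk1, with a log2 difference of -2.42 in the mutant and -2.05 in wild type, and Anln fell less, at -0.72 and -0.68.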

How the data were processed

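The deposited tables hold 1 log2 value per probe set and array, as the authors processed them. That they are on a log2 scale is inferred from their ranges, which are 0.265 to 15.75 (array A) and 0.0973 to 15.51 (array B). How they were summarised is not given in the labels or files used here. No further scaling was applied. The platform annotation gives a single gene for 20380 of the 22690 probe sets of array A and 14661 of the 22575 of array B. Probe sets with several genes were not named.

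Models were fitted per array type in limma 3.58.1 (R 4.3.3), with 4 group means and an intensity trend in the variance, after 64 control probe sets were left out and those whose mean reached the 40th percentile (4.96 on array A, 3.36 on array B) were kept. Benjamini-Hochberg adjustment ran over all probe sets kept on an array type, with an adjusted p under 0.05 counted as a call. Tables and figures used Python 3.11.15, numpy 2.4.6, pandas 2.3.3 and matplotlib 3.10.9. The number of arrays, 4 a group, limits the precision.

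For Oct-1 mutant unirradiated replicate 1 the array A label gives no replicate number, and the number on its array B counterpart, whose title carries the same digits, was used. Deviations from group means of same-numbered extracts had correlations of 0.32 to 0.72 (array A) and 0.24 to 0.6 (array B), with medians of 0.58 and 0.44. Extracts of the same run with other numbers correlated about as much, with medians of 0.56 and 0.4, so these values do not show that the numbers pair extracts. The main fit used no pairing and no block. Alternatives were a replicate block, a run block, each run alone, other filters, no trend, quantile normalization, median centring, leaving out each extract and a 2-fold minimum.

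All probe sets annotated to 1 of the 10 genes were accounted for, and 0 further ones were shared between 1 of them and other genes. Of each pathway list up to 4 called genes with the smallest adjusted p in the mutant were named, with any called in the other direction, and the 8 array A and 4 array B genes most like the mean profile. The genes, the lists and the naming rule were chosen with earlier results of these data known.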

Additional observations from a re-analysis of the deposited data

Results flagged for a closer look

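Of 64 groups of 4 extracts examined, 2 held an extract farther from the rest than Dixon's 95% critical value of 0.829 allows, and chance flags about 1 in 20 groups. Aurkb 1451246_s_at was 5.37 in irradiated mutant replicate 3, against 6.1 to 6.21 in the other irradiated mutant replicates, a ratio of 0.874. Cdk1 was 11.44 in irradiated mutant replicate 2, against 11.21 to 11.24 in the others, a ratio of 0.833.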

How the results depend on the processing

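The direction of every called change of these probe sets held under all alternatives tried, and 0 calls reversed. Plk1, Aurka, Cdc25b, both Cks2 probe sets and Nek2 1417299_at kept their irradiation calls in both genotypes under each alternative that tested them, apart from the 2-fold minimum. With a change of at least 2-fold required, 5 of the 11 probe sets called in the mutant and 3 of the 9 called in wild type were left, and 5 of 25 and 3 of 22 in the pathway lists. In the first run alone, Cdk1 (adjusted p = 0.356) and Ccnb2 (0.0577) lost their mutant calls, and Ccna2 1417910_at (0.086) and Nek2 1437580_s_at (0.0618) their wild type calls. The difference of the irradiation effects gave 0 calls throughout, for these probe sets and for the pathway lists.

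Between irradiated genotypes the count of these probe sets was 0, and it was 3 with a replicate block, 3 with a run block and 1 within the first run. The pathway count there was 0, and it was 7 with a replicate block, 6 with a run block, 2 and 1 within the first and second runs, 1 with the 60th percentile filter, 1 after median centring and 0 to 1 when each extract was left out. Without irradiation the pathway count was 2, and it was 10 with a replicate block, 10 with a run block, 1 within the first run, 0 without a filter, 1 with the 60th percentile filter, 1 after quantile normalization, 0 after median centring, 0 with a 2-fold minimum and 0 to 3 when each extract was left out. For irradiation, the pathway count was 43 with a replicate block and 47 with a run block in the mutant, against 25, and 43 with either in wild type, against 22. The cause was not tested. The block changed no call of these probe sets other than those given in the report. No alternative moved the median of all probe sets by more than 0.044 in size. Dim probe sets such as Nek2 1437579_at and Aurka 1440129_at carry no test, and without the filter their adjusted p in the irradiation comparisons was 0.821 in the mutant and 1 in wild type.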
